A study of Mus musculus with 23 samples.

Results

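Alternative 5' splice sites are neighbouring donor sites at the end of an exon between which splicing chooses, and they were taken here as every row of type A5SS in the authors' deposited table of splicing events in mouse skeletal muscle. The rule gave 33 of the 265 listed events, which are 32 distinct events of 252 and lie in 32 of the 221 genes. All 32 genes were found by symbol in RefSeq (GRCm38.p6, to which mm10 corresponds), all are protein-coding there, and every stretch lies inside its gene. RNA sequencing covered muscle of 23 male mice. The NZO/HIBomDife mice, a strain that becomes obese and diabetic through many loci, were on caloric restriction (3 samples), on intermittent fasting (5 samples) or fed ad libitum (5 samples). The C57BL/6J mice, a common inbred strain, were exercised (5 samples) or sedentary (5 samples). The ad libitum mice are the control of both diets, and the sedentary mice that of exercise. Each event has 1 inclusion level per group on a scale from 0 to 1 (PSI, percent spliced in), so the levels carry no standard deviation, no test over mice could be made, and the read depth behind a level is unknown. The table lists called events only: no absolute difference in it is below 0.2 and no probability below 0.9. In bulk muscle, a change of splicing within cells and a change in which cells gave the RNA cannot be told apart. The table holds no expression level, so the tissue label could not be set against marker levels. Of 10 genes that mark skeletal muscle, only Neb, which encodes nebulin, has a listed event, and none of its events is at a 5' splice site.

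The spliceosome recognises a 5' splice site first through base pairing of the U1 small nuclear RNA with the donor, whose intron side almost always begins with GT, and later through U6 small nuclear RNA. Where an exon has several usable donors, use of the one farther downstream lengthens the exon and use of the one upstream shortens it. The stretch between them is what the table lists, so a higher inclusion level was read here as more use of the downstream donor. A stretch whose length is a multiple of 3 keeps the reading frame if it is coding, and any other length shifts it. Which of these stretches are coding was not determined here.

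The only donor whose letters could be read lies in Zbtb25, a transcription factor with a BTB domain and zinc fingers. Windows around RefSeq start sites (250 bases before to 50 after) exist for 24 of the 32 genes, and 1 of them reaches a listed stretch. The Zbtb25 stretch of 102 nt begins 25 nt after a RefSeq start site, and its first 25 bases are shown in capitals behind the last 5 bases of the upstream exon end (chr12:76369415-76369444, minus strand, GRCm38.p6, RefSeq).
Zbtb25: tctggGTAAGCAACGCGGCCCTGCCCCTGT
The stretch opens with GT, so the upstream donor has the usual first letters of an intron. Tmem216, which encodes a protein of the ciliary transition zone, comes next closest: its 14-nt stretch starts 51 nt after a start site, and 1 base lies between the window and the stretch. The last 30 bases of that window (chr19:10555714-10555743, minus strand) are shown for what precedes the choice of donor, with the ATG nearest to the stretch in capitals.
Tmem216: tttccatggggactgaacATGgcgccgcga
From that ATG to the end of the window there are 12 bases. Both stretches thus begin close behind a RefSeq start site.

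Caloric restriction was listed with 11 of these events, and inclusion was higher in 5 and lower in 6 of them than in ad libitum mice. Among all 114 listed events of the comparison 52.6% had higher inclusion. Intermittent fasting had 14 events, 3 higher and 11 lower, where 39.2% of all 79 listed events were higher. Exercise had 8 events, 3 higher and 5 lower than in sedentary muscle, where 48.6% of all 72 listed events were higher. None of these divisions was tested here, and the first 2 comparisons share the ad libitum mice. The starting level limits the direction, since a listed difference is at least 0.2: 6 of the 11 events under caloric restriction, 3 of the 14 under fasting and 3 of the 8 after exercise had a control level below 0.2 or above 0.8 and could be listed in 1 direction only. In size, the absolute differences had a median of 0.385 for caloric restriction, beside 0.350 for its other event types pooled. The medians were 0.410 beside 0.352 for fasting, and 0.313 beside 0.323 for exercise. The pooled types differ among themselves. In the same order of comparisons, alternative 3' splice sites had medians of 0.387, 0.436 and 0.403, each above that of the 5' splice sites. Retained introns had 0.412, 0.352 and 0.363, and skipped exons 0.313, 0.340 and 0.295.

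**Figure D1:**
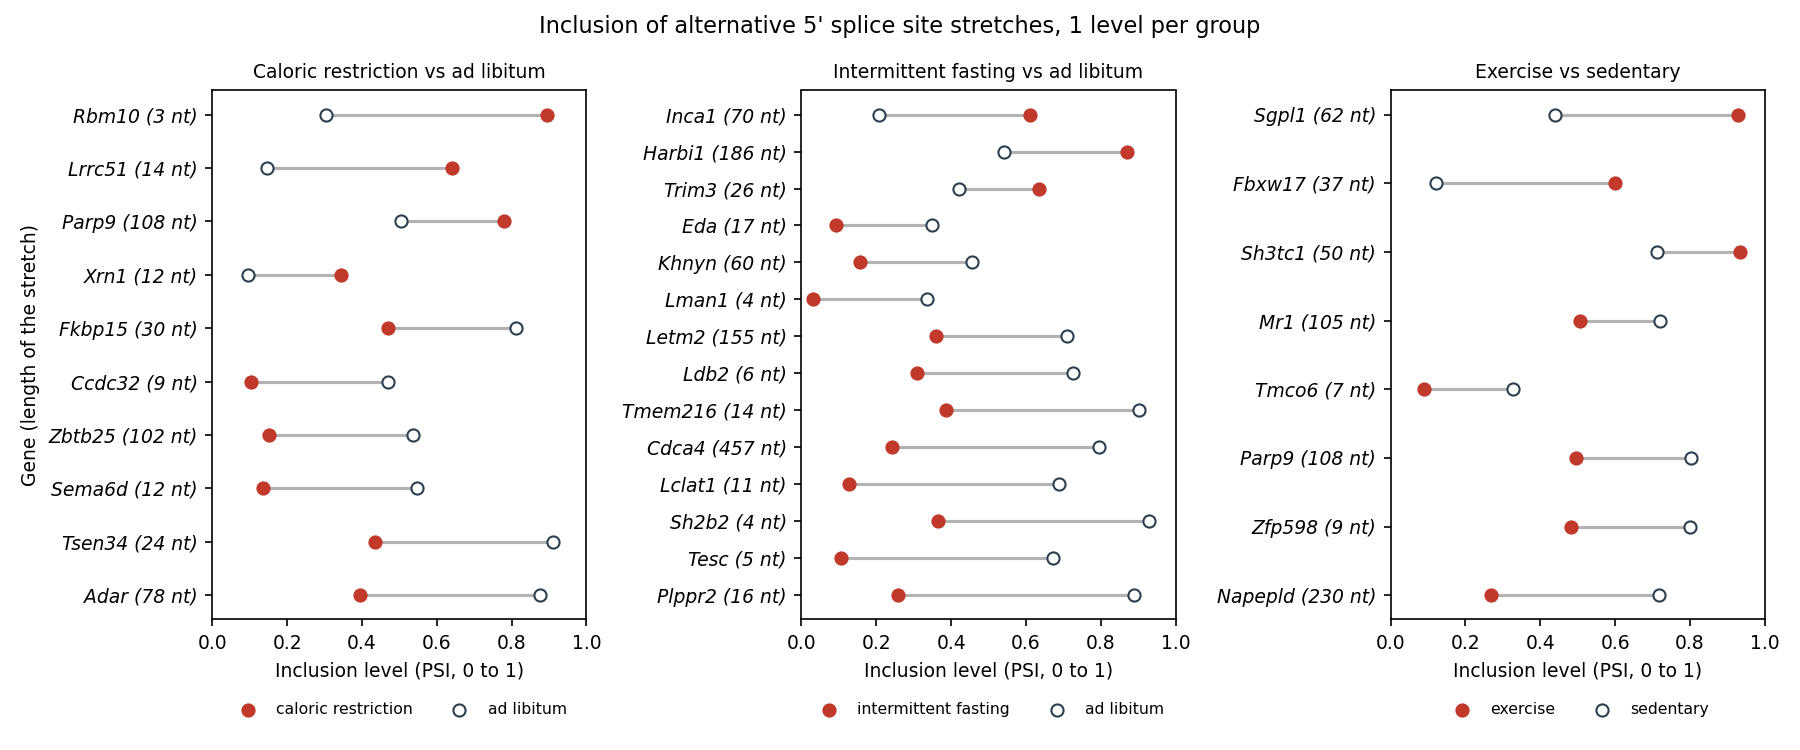
Inclusion level (PSI, 0 to 1) of each listed alternative 5' splice site stretch, with filled points for the treated group, open points for its control and a grey line for the difference; gene names carry the length of the stretch in nt. Each point is the authors' single level for a group, without an error; 10 of the 11 caloric restriction events are plotted, and 4 of those 10 lie higher under caloric restriction, 3 of 14 under intermittent fasting and 3 of 8 after exercise.

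The genes are described in groups by known role, which serve the order of the text only: the groups come from no fixed list, and no count or direction is compared between them. Among genes that act on RNA, Rbm10, an RNA-binding protein that regulates splicing, had the largest difference of the 11 events under caloric restriction. Its stretch is a single codon in length (3 nt, chrX:20645595-20645597, plus strand) and had a level of 0.893 under caloric restriction against 0.303 ad libitum, 0.59 higher. The event carries confidence class 2 in the authors' deposited table, a class whose meaning is not stated and which only Ldb2 shares among the 33. Adar, the enzyme that edits adenosine to inosine in double-stranded RNA, went the other way. Its 78-nt stretch (chr3:89745524-89745601, plus strand), 26 codons in length, had a level of 0.395 under caloric restriction against 0.877 ad libitum. Tsen34, the catalytic subunit of the endonuclease that removes introns from transfer RNA, also had lower inclusion, with 0.434 under caloric restriction against 0.910 ad libitum for a 24-nt stretch (chr7:3693866-3693889, plus strand). Both Adar and Tsen34 started so high that only a lower level could have been listed. Xrn1, the main cytoplasmic exoribonuclease that degrades RNA from its 5' end, had the smallest difference of these 11 events, with 0.345 under caloric restriction against 0.0943 ad libitum for 12 nt.

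Khnyn, known in human cells as a nuclease cofactor of the antiviral protein ZAP, had a level of 0.158 under intermittent fasting against 0.456 ad libitum for 60 nt. Its probability, 0.9 in the authors' deposited table, lies at the lower limit of that table. Zfp598, the ubiquitin ligase that senses collided ribosomes, had a level of 0.482 in exercised muscle against 0.801 in sedentary muscle for 9 nt. Its sedentary level, above 0.8, left room for a listed difference in the lower direction only.

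A list of 43 genes was looked up, chosen with earlier results of these data known. It holds factors that themselves recognise or steer 5' splice sites and other proteins of the spliceosome, Cwc22 among them. Of the 43, 5 (11.6%) had any listed event, beside 214 of 21900 protein-coding RefSeq genes (0.977%), many of which muscle need not express. Because of how the list was chosen, nothing is read from that contrast. Rbm10 was the 1 of the 5 with an event at a 5' splice site, where 32 of all 221 listed genes (14.5%) had one. Cwc22, a spliceosome-associated protein, had a 3-nt event at a 3' splice site, with 0.379 under caloric restriction and 0.243 under intermittent fasting against 0.860 ad libitum. Prpf4b, a kinase of the spliceosome, and Tia1, which binds next to weak donors and helps U1 there, had higher inclusion under caloric restriction (0.894 against 0.499 ad libitum for a retained intron, and 0.721 against 0.341 for a 739-nt stretch at a 3' splice site). Prpf39, the mouse counterpart of a yeast U1 component, had a retained intron with 0.255 under intermittent fasting against 0.600 ad libitum. The other 38 genes of the list have no listed event, which does not show that their splicing was unchanged.

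Among genes of transcription and the cell cycle, Zbtb25, whose donor is printed above, had a level of 0.152 under caloric restriction against 0.537 ad libitum. Under intermittent fasting, Cdca4, a cell-division-associated protein, had the longest of the 32 stretches (457 nt, chr12:112828849-112829305, minus strand), with 0.242 under fasting against 0.796 ad libitum. Ldb2, a cofactor that binds LIM-domain transcription regulators, had a level of 0.309 under fasting against 0.726 ad libitum for a 6-nt stretch (chr5:44479093-44479098, minus strand). A skipped exon of Ldb2 that lies 2457 nt from it was listed under caloric restriction instead, and with higher inclusion (0.880 against 0.478 ad libitum). Inca1, an inhibitor of cyclin-dependent kinase named for its binding to cyclin A1, was higher, with 0.611 under fasting against 0.207 ad libitum for 70 nt (chr11:70699988-70700057, minus strand). Harbi1, a protein derived from a DNA transposase, was also higher, with 0.870 under fasting against 0.542 ad libitum for 186 nt.

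Among genes for signalling proteins, the 4-nt stretch of Sh2b2, an adaptor of the insulin receptor (chr5:136244629-136244632, minus strand), had a level of 0.366 under fasting against 0.930 ad libitum, the highest ad libitum level among the 14 fasting events. Tesc, a calcium-binding protein, had a 5-nt stretch (chr5:118056439-118056443, plus strand) with 0.106 under fasting against 0.672 ad libitum. Plppr2, a membrane protein related to the phospholipid phosphatases, had the largest difference of all 33 events, with 0.257 under fasting against 0.890 ad libitum for 16 nt (chr9:21947053-21947068, plus strand). None of these 3 lengths is a multiple of 3.

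Eda, the ectodysplasin ligand of the tumour necrosis factor family, had 2 neighbouring events under fasting. The 17-nt stretch (chrX:100395814-100395830, plus strand) had a level of 0.0918 under fasting against 0.350 ad libitum. The skipped exon that directly adjoins it, 139 nt long, had 0.0912 under fasting against 0.314 ad libitum. The levels of the exon and of its extension thus lay close together in each group, that of the extension above that of the exon. The pair is not independent because the extension needs the exon. On a common scale the extension could then not lie above the exon, so how the levels of the pair relate is unknown. For Eda, the lower level of the extension is therefore not read as less use of the downstream donor. Less use of the downstream donor and less inclusion of the whole exon were not told apart here. Exon and extension together are 156 nt, or 52 codons, while neither length alone is a multiple of 3.

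Sema6d, a transmembrane semaphorin, had lower inclusion, with 0.136 under caloric restriction against 0.548 ad libitum for 12 nt (chr2:124662360-124662371, plus strand). After exercise, Sh3tc1, a protein with SH3 and TPR domains, had a level of 0.934 in exercised muscle against 0.711 in sedentary muscle for 50 nt.

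Among genes of lipid enzymes, Lclat1, an acyltransferase that remodels cardiolipin, had a level of 0.128 under fasting against 0.688 ad libitum for 11 nt (chr17:73108146-73108156, plus strand). Sgpl1, the lyase that ends sphingosine-1-phosphate signalling, was higher, with 0.929 in exercised muscle against 0.439 in sedentary muscle for 62 nt (chr10:61147523-61147584, minus strand), the largest difference of these 8 exercise events. Napepld, the phospholipase that makes N-acylethanolamines such as anandamide, was lower after exercise, with 0.268 against 0.717 in sedentary muscle for 230 nt (chr5:21700975-21701204, minus strand). Its probability, 0.9 in the authors' deposited table, is the lowest of the 8 exercise events.

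Among genes of membrane traffic and organelles, Lman1, the lectin that carries glycoproteins out of the endoplasmic reticulum, had the lowest treated level of the 33 events: 0.0309 under fasting against 0.335 ad libitum for 4 nt (chr18:65983821-65983824, minus strand). Tmem216 had 0.387 under fasting against 0.902 ad libitum (its 14-nt stretch is chr19:10555699-10555712, minus strand). Letm2, a mitochondrial inner membrane protein of the LETM1 family, had 0.359 under fasting against 0.709 ad libitum for 155 nt. Fkbp15, an endosomal protein of the FK506-binding family, had 0.471 under caloric restriction against 0.813 ad libitum for 30 nt. Ccdc32, known in human cells to help assemble the clathrin adaptor AP2, had 0.104 under caloric restriction against 0.469 ad libitum for 9 nt. Outside these roles, Tmco6 had 0.0896 in exercised muscle against 0.328 in sedentary muscle for 7 nt. Lrrc51, a leucine-rich repeat protein, had higher inclusion, with 0.640 under caloric restriction against 0.147 ad libitum for 14 nt (chr7:101933750-101933763, minus strand). A skipped exon of Lrrc51 at a distance of 12183 nt was also higher under caloric restriction (0.759 against 0.170 ad libitum).

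Among further genes of ubiquitin transfer and immunity, Trim3, a RING-type ubiquitin ligase, had the smallest difference of all 33 events, with 0.634 under fasting against 0.421 ad libitum for 26 nt. Fbxw17, an F-box protein, had a level of 0.601 in exercised muscle against 0.121 in sedentary muscle for 37 nt (chr13:50419992-50420028, plus strand). Mr1, the class I-like molecule that presents vitamin B metabolites to mucosal-associated T cells, had 0.505 in exercised muscle against 0.721 in sedentary muscle for 105 nt. Trim3 and Fbxw17 were higher and Mr1 lower in the treated group.

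Parp9, an interferon-induced member of the ADP-ribosyltransferase family, was the only gene of the 32 listed at a 5' splice site in 2 comparisons, and the position was the same in both (chr16:35943403-35943510, plus strand, 108 nt, 36 codons). Under caloric restriction its level was 0.779 against 0.503 ad libitum, 0.28 higher. In exercised muscle it was 0.496 against 0.804 in sedentary muscle, 0.31 lower, and from 0.804 only a lower level could have been listed. The control levels of the 2 strains also lay apart, so strain and starting level differ between the comparisons along with the intervention, and the difference between them was not tested. No event at a 5' splice site was listed under both diets. Of the other types 10 events were, which is 9.71% of the 103 such events under caloric restriction and 15.4% of the 65 under fasting. At shares of that size, 11 and 14 events leave room for few or no shared ones. Fasting and exercise also had no event at a 5' splice site in common, beside 1 event of another type.

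The lengths of the 32 distinct stretches ran from 3 to 457 nt with a median of 20.5 nt, and 16 of them were 20 nt or shorter. Alternative 3' splice sites, the most similar event type, had a median of 3 nt. Stretches of exactly 3 nt made up 23 of the 43 distinct events there and 1 of the 32 at 5' splice sites, that of Rbm10. Tandem acceptors that lie 3 nt apart are a well-known source of such events at 3' splice sites. Lengths of 4 nt occurred in Sh2b2 and Lman1 and in no alternative 3' splice site event. The difference in length between the 2 types was not tested.

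**Figure D2:**
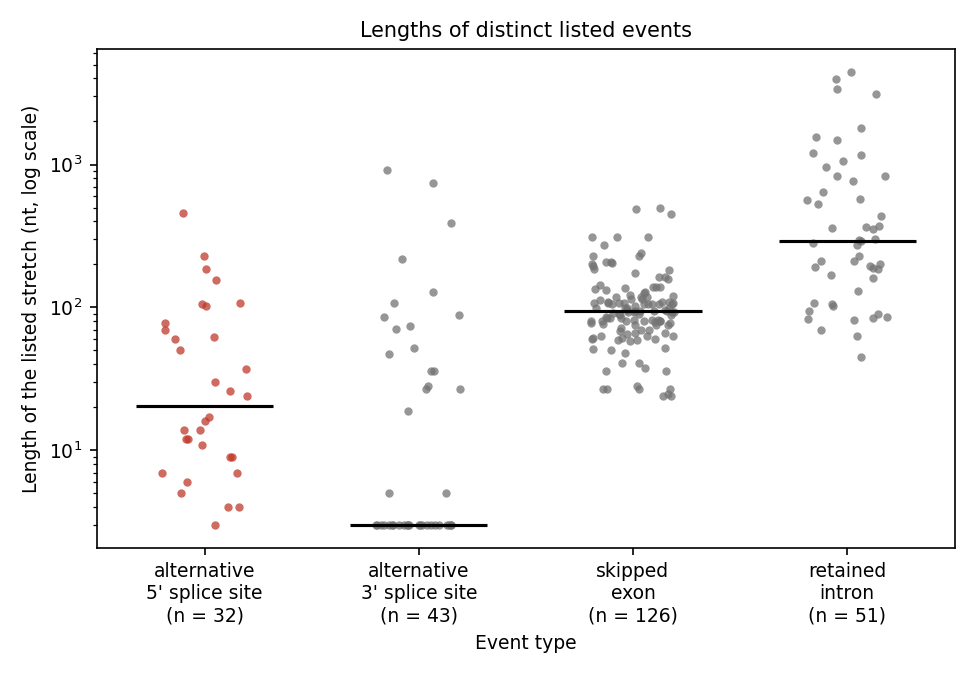
Length in nt (log scale) of every distinct listed event by type, with 1 point per event and a black line at the median; points are spread sideways for visibility only. The 32 alternative 5' splice site stretches (red) spread around a median of 20.5 nt, while 23 of 43 alternative 3' splice site events lie at 3 nt.

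Of the 32 lengths 14, or 43.8% (exact 95% binomial interval 26.4% to 62.3%, over listed events only), were multiples of 3, against 67.4% of the alternative 3' splice site events, 58.7% of the skipped exons and 31.4% of the retained introns. Under caloric restriction 9 of 11 stretches had such a length. Under fasting 3 of 14 had one, those of Harbi1, Ldb2 and Khnyn, and after exercise 3 of 8, those of Zfp598, Mr1 and Parp9. For all listed events other than those at 5' splice sites the shares were 60.2% for caloric restriction, 50.8% for fasting and 46.9% for exercise. The exact 95% intervals were 48.2% to 97.7% for the 9 of 11 and 4.66% to 50.8% for the 3 of 14. They cover the counting of listed events, not variation between mice, and the difference was seen in the data and not tested.

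Many of the stretches lay close to the start of their gene. Of the 32, 9 (28.1%, exact 95% binomial interval 13.7% to 46.7%) began within 500 nt of the gene's annotated 5' end, and 13 within 1000 nt. Among alternative 3' splice sites 0 of 42 with a matched gene began within 500 nt, among skipped exons 3 of 125 and among retained introns 9 of 51. Within 1000 nt the counts for these 3 types were 3 of 42, 4 of 125 and 12 of 51. A first exon has a 5' splice site and no 3' splice site, so some difference in place between the types follows from their definition. The 9 genes were Ccdc32 (90 nt from the annotated end), Sgpl1 (100 nt), Lrrc51 (155 nt), Lclat1 (161 nt), Trim3 (172 nt), Harbi1 (214 nt), Cdca4 (216 nt), Inca1 (228 nt) and Napepld (418 nt). Whether each stretch belongs to a first exon was not determined here. The median distance was 3744 nt for alternative 5' splice sites and 19339 nt for alternative 3' splice sites. It was 9928 nt for retained introns and 37618 nt for skipped exons.

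Within the fasting list, the 5 fasting events within 500 nt of the gene's 5' end included all 3 with higher inclusion (Harbi1, Inca1 and Trim3) beside Cdca4 and Lclat1, which were lower. The 9 fasting events beyond 500 nt of that end were lower, but Tmem216 and Sh2b2 among them begin 51 and 308 nt after another RefSeq start site. Measured from the nearest such site, which 10 of the 14 events have, 6 lay within 500 nt, 2 higher and 4 lower, and the 4 beyond were lower. Under caloric restriction the 9 events beyond 500 nt of the gene's 5' end were 4 higher and 5 lower. Zbtb25 and Tsen34 among them begin 25 and 256 nt after another RefSeq start site. After exercise the 6 events beyond 500 nt of the gene's 5' end were 2 higher and 4 lower. Under caloric restriction 7 of the 11 events have such a start site. Measured from the nearest one, 2 lay within 500 nt, 0 higher and 2 lower, and 5 beyond, 2 higher and 3 lower. After exercise 6 of the 8 events have one, with 2 within 500 nt, 1 higher and 1 lower, and 4 beyond, 2 higher and 2 lower. These counts are small and were not tested. At the far end of their genes lay Sema6d and Eda, whose stretches began after 99.1% and 98.8% of the gene's annotated length.

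**Figure D3:**
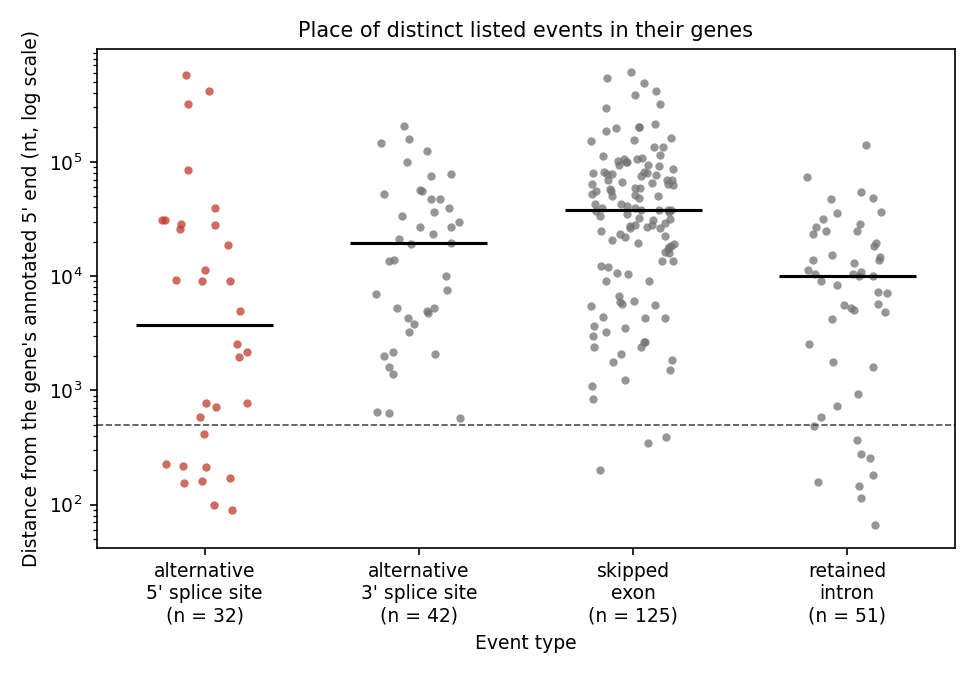
Distance in nt (log scale) from the annotated 5' end of the gene to the start of each distinct listed event, by type, with 1 point per event, a black line at the median and a dashed line at 500 nt. Below the dashed line lie 9 of 32 alternative 5' splice site events (red), 0 of 42 alternative 3' splice site events, 3 of 125 skipped exons and 9 of 51 retained introns.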

How the data were processed

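Total RNA of the muscles came from a column kit with DNase treatment, per the labels' protocols. Per the labels' design text, splicing was analysed with Whippet and rMATS. Which tool gave which value, the aligner, the depth and the way samples were combined were not given in the sources used here. The submitters' processing notes name mm10 as the genome build. In the table, which the authors deposited in 3 blocks, the inclusion levels are a fraction from 0 to 1 per group, per the file headers. The deposited difference and probability are other scores of the authors, neither of them a p-value. The deposited difference is control minus treated (checked on all rows, largest gap 1e-05). Differences are given here as treated minus control. Groups were taken from the intervention label, since a second label names controls and treated mice alike.

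Events were counted with Python 3.11.15, numpy 2.4.6, pandas 2.3.3 and scipy 1.17.1, and drawn with matplotlib 3.10.9. Positions were taken to count from 1 and to include both ends, as the adjoining Eda events are written, and length is end minus start plus 1. Distances run from the 5' end of the RefSeq gene, or of a RefSeq start site, to the 5' end of the stretch. No test was run, because the table gives 1 level per group. Reading and counting were checked on a simulated table. Alternatives were a probability of at least 0.95, an absolute difference of at least 0.3, confidence class 1 only, 1 event per gene, and another reading of lengths and distances. Of the 32 genes with an event at a 5' splice site, 31 are named with their levels, and 1, under caloric restriction, is counted but not reported here by name. Positions are printed for differences of at least 0.4, for short stretches and for genes or positions listed more than once. Members, lists and rules were chosen with earlier results of these data known.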

Additional observations from a re-analysis of the deposited data

How the results depend on the processing

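With only probabilities of 0.95 or more kept from the authors' deposited table, 5 events at 5' splice sites were left for caloric restriction, 7 for fasting and 4 for exercise. At an absolute difference of at least 0.3, 5 were left after exercise. With lengths taken as end minus start, 25% of the 32 distinct lengths were multiples of 3. The first 4 values follow from stricter limits on a fixed list, and the last from counting 1 base fewer per stretch. The other 41 recomputed counts and shares stayed within 1.5 times the count, or within the exact 95% binomial interval of the share as first computed. Several of them could not have moved. No gene has more than 1 event at a 5' splice site in a comparison, so keeping 1 event per gene removed nothing. Keeping confidence class 1 only removed Rbm10 and Ldb2 and no exercise event. Staying within these limits is therefore no measure of robustness. Those intervals are wide with 8 to 14 events per comparison. The recomputed shares by comparison for multiples of 3, and the distances to the gene's 5' end, were added after seeing the data. Measured from the nearest start site in the promoter table, 10 of 23 events at 5' splice sites lay within 500 nt. On that measure the counts were 1 of 36 for alternative 3' splice sites, 4 of 87 for skipped exons and 8 of 35 for retained introns. No paired analysis was possible because each group has a single level and no label ties mice together, and no replicate could be left out for the same reason.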
